A study of Rattus norvegicus with 4 samples.

Results

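The genes described here encode the proteins of the extracellular matrix of the rat mammary gland and the enzymes that cut them. They were taken by symbol: every array feature whose gene is a collagen chain, a laminin chain, a fibrillin, a fibulin, a matrix metalloproteinase (Mmp), an Adamts protease or a Timp inhibitor, or 1 of the named matrix genes such as Sparc, Dcn, Lum, Bgn, Tnc, Eln, Lox, Fn1 and Ccn2, with the macrophage elastase Mmp12 left out. This gave 80 of the 20500 features on the array and 55 of 9653 named genes. Of these 55 genes 34 passed the intensity filter, against 6180 of all genes, and 25 of the 34 had a value on all 4 arrays. No feature for Postn or Nid1 carried those symbols. The rule uses gene symbols and no measured value.

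Total RNA was measured on 4 arrays, 1 for each group of 5 Lewis rats. Rats of the parous group littered when 87 days old, suckled their pups over the next 21 days and were separated from them at 108 days. They were examined after 28 days of involution, at 136 days, together with virgin rats matched for age. The parous group with N-methyl-N-nitrosourea (MNU), an alkylating carcinogen used to induce mammary tumours, and the virgin group with MNU had the same histories, were injected intraperitoneally with 50 mg/kg and reached 157 days, 3 weeks after the injection, before tissue was taken. Effects of MNU and of these weeks of age cannot be told apart. The MNU arrays also held more blank values (795 and 666 against 421 and 390), whose part in the results was not tested. With 1 array per group, no difference between 2 arrays could be checked in replicates, and so few arrays limit the precision. The sources used here do not say if each array held pooled RNA.

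The matrix around mammary ducts has 2 layers. The basement membrane, a sheet of type IV collagen, laminins and nidogen, lies directly under the epithelium, and the stroma outside it is built from fibrillar collagens, elastic fibres, proteoglycans and adhesive glycoproteins. Mmp and Adamts enzymes cut these proteins and Timp proteins inhibit them. Breakdown of the basement membrane by metalloproteinases accompanies the death of milk-producing cells during involution, and stromelysin-1, the product of Mmp3, is among the enzymes known from mouse involution and branching.

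The promoters of Ccn2 and Mmp3, on which the results below turn, are shown first, with those of the protease genes Mmp11 and Mmp23 for comparison. Mmp14, also described below, was not matched to a promoter. Each run holds 250 bases before and 50 after the annotated start in the RefSeq annotation of assembly GRCr8, given 5′ to 3′ on the gene's own strand. Capitals mark TATAAA (the TATA box), TGANTCA (the site of AP-1 factors) and GGAATG (the site of TEAD factors), each searched on both strands, and no matches overlapped. Ccn2 lies at chr1:22624565-22624864 on the minus strand, Mmp3 at chr8:12925031-12925330 on the plus strand, Mmp11 at chr20:12730034-12730333 on the plus strand and Mmp23 at chr5:171524485-171524784 on the minus strand.
Ccn2: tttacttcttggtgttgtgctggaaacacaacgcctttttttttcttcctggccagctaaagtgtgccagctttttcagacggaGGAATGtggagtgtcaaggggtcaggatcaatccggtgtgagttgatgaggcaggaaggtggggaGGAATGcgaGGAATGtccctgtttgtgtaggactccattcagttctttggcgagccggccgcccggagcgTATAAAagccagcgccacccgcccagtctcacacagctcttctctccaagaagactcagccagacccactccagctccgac
Mmp3: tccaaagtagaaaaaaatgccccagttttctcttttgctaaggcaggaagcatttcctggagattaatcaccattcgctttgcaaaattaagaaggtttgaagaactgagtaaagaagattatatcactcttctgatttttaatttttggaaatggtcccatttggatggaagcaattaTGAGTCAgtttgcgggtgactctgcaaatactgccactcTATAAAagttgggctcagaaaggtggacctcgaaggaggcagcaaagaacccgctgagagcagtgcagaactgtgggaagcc
Mmp11: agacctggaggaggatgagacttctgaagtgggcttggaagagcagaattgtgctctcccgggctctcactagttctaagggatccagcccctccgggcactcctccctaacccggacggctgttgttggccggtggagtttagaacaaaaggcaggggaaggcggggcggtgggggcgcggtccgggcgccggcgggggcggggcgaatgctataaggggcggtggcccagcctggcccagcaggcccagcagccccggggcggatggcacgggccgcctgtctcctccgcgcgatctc
Mmp23: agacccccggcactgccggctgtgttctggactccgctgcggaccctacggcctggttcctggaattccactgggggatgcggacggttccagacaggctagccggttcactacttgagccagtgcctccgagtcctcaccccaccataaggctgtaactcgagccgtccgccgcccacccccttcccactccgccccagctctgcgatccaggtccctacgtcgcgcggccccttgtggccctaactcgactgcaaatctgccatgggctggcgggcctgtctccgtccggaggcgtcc

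The Ccn2 window held 3 copies of GGAATG, at positions -166, -101 and -92 from the start, and a TATAAA at -31. The Mmp3 window held 1 TGANTCA at position -71 and a TATAAA at -32. The windows of Mmp11 and Mmp23, 2 further protease genes described below, held none of these letters. Over 39 matrix genes matched to a promoter, 13 (33.3%) held TATAAA, 5 (12.8%) held TGANTCA and 7 (17.9%) held GGAATG. Over all 33469 promoters the shares were 14.2%, 7.33% and 14.2%. A match of letters is a description of the sequence and was not tested as a binding site.

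Several of the brightest matrix features were blank on part of the arrays, which limits what can be compared. Of the 80 features 15 (18.8%) lacked at least 1 value, against 7.09% of all features. Blanks were more frequent among bright features: of 9 matrix features that read 5000 units or more on an array 6 had a blank, and so did 55.8% of the 242 such features on the whole array, against 5.86% of features that stayed under 5000 units. Fn1, which encodes fibronectin, was blank on all 4 arrays. Dcn, which encodes decorin, a proteoglycan that binds collagen fibrils, had a value only on the untreated parous array (14861 units after normalization). Sparc, a collagen-binding glycoprotein of remodelling tissue, had one only on the virgin MNU array (11827 units). Col1a2, 1 of the chains of type I collagen, read 20692 units on the parous and 19274 on the virgin array and was blank after MNU. Col18a1 (4254 units) and Col4a3 (844 units) had values only on the untreated parous array. No difference can be given for Dcn, Sparc, Col18a1, Col4a3 or Fn1. After the filter, 9 of 34 matrix genes (26.5%) lacked a value, against 600 of 6180 genes (9.71%).

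A further 21 matrix genes did not pass the filter or had no value. They were the fibrillar collagens Col11a2 and Col5a3, the basement membrane genes Col4a4, Col4a5 and Lama1, the collagens Col13a1 and Col14a1, the elastic fibre genes Eln, Fbn1 and Lox, the glycoprotein genes Fn1 and Tnc, and 9 of 16 Mmp genes. Their 28 features, where not blank, read between 74.1 and 222 units as deposited, each below the median of its array (179 to 238 units). Intensity does not measure the level of one gene against another here: the 5 features of Lamc1 read from 102 to 3250 units as deposited. Levels are therefore compared only between arrays for the same feature.

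**Figure D1:**
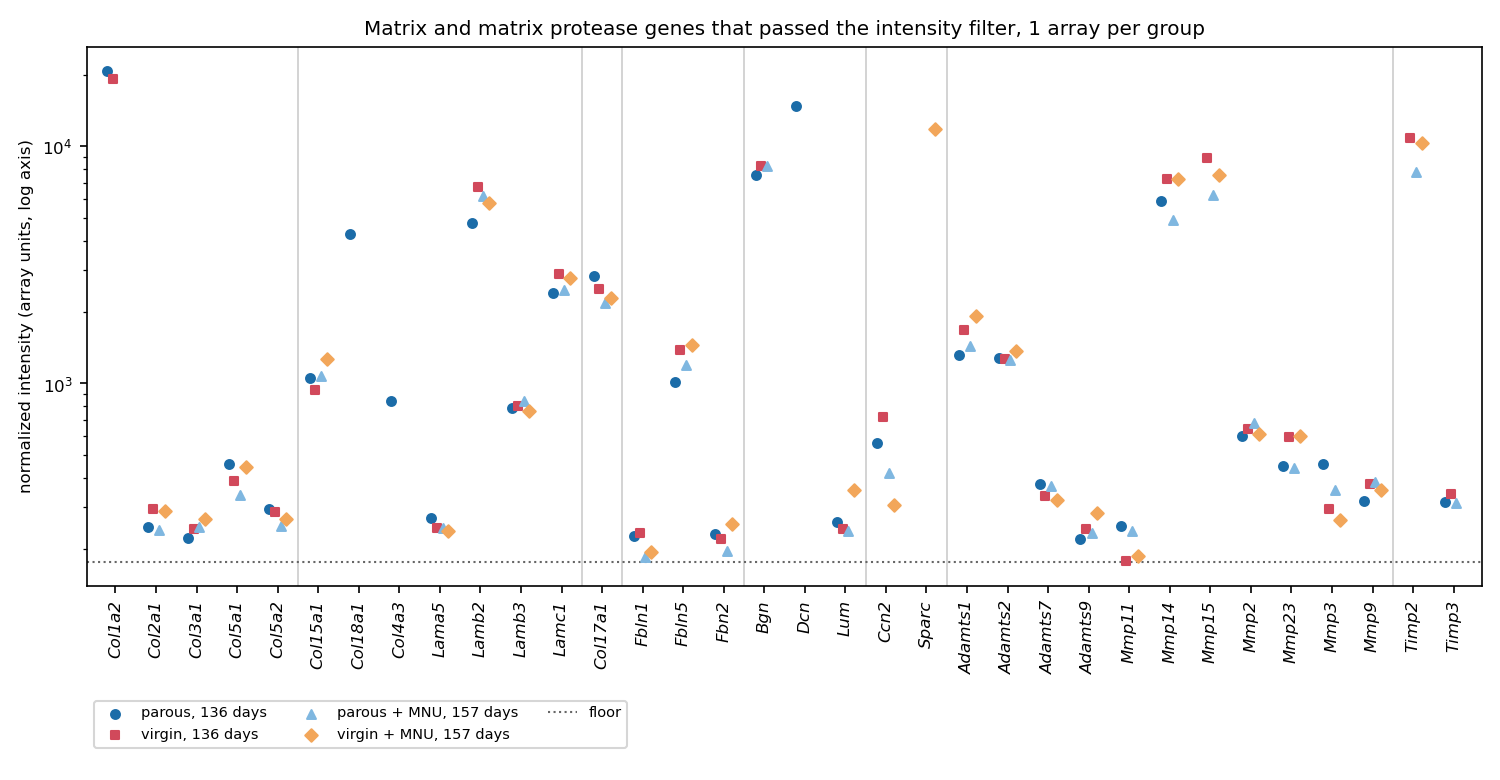
Normalized intensity (array units, log axis) of the 34 matrix and protease genes that passed the filter, 1 point per array, grouped from left to right as fibrillar collagens, basement membrane, other collagens, elastic fibre, proteoglycans, adhesive and matricellular genes, proteases and inhibitors. Missing points are blanks, the dotted line is the floor of 176.9 units, and Ccn2 shows the widest spread among genes with 4 points, from 306 to 723 units.

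The comparison of parous with virgin glands asked whether the matrix of a gland that had passed through lactation and involution differed from that of a gland that had not. The 1 matrix gene that passed the test was a protease gene. Mmp3, which encodes stromelysin-1, an enzyme that cuts proteoglycans and laminin and activates other metalloproteinases, read 458 units in the parous and 294 in the virgin gland, and 355 and 266 units on the corresponding MNU arrays. Both parous arrays were above both virgin arrays. The log2 difference was 0.64 (1.56-fold) without and 0.42 (1.33-fold) with MNU. Over both pairs Mmp3 rose by 0.53 ± 0.11 (SE, 2 arrays per parity state, 95% interval 0.28 to 0.78) in limma, with adjusted p = 0.0491. That call lies at the threshold: it held in 6 of 12 ways of processing the data, with adjusted p between 0.00257 and 0.641.

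Mmp11, which encodes stromelysin-3, a metalloproteinase of stromal cells, lay in the same direction. It read 252 units in the parous and 178 in the virgin gland, and 238 and 188 units after MNU. The virgin arrays were close to the floor of 176.9 units, below which intensities were not told apart. The differences were 0.50 and 0.34 on the log2 scale, with a mean of 0.42 ± 0.11 (SE, limma adjusted p = 0.123), which did not pass. With Mmp3 it was 1 of 4 matrix genes above 0 in both parity pairs, beside Adamts7 (0.17 and 0.19), whose product cuts a cartilage matrix protein, and Lama5 (0.14 and 0.04), a laminin chain of mature epithelial basement membranes. As deposited, without scaling, the values with MNU were -0.15 for Adamts7 and -0.28 for Lama5, where all genes shifted by -0.36.

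Mmp14 and Mmp23 were below 0 in both pairs. Mmp14 encodes MT1-MMP, a collagenase on the cell surface that also activates the gelatinase of Mmp2. Its brighter feature read 5910.0 units in the parous and 7288 in the virgin gland, and 4897 and 7288 units after MNU. In that feature both parous arrays were below both virgin arrays. The other feature of Mmp14 was also below 0 in both pairs, with differences of -0.23 and -0.40 beside -0.30 and -0.57. Its untreated parous array (4874 units) was above its virgin MNU array (4729.5 units), so the order of the 4 arrays was not the same. Mmp23, which encodes a metalloproteinase held in the membrane by an N-terminal anchor, read 447 against 592 units without and 441 against 602 units with MNU, differences of -0.41 and -0.45. In limma the means were -0.44 ± 0.12 for Mmp14 (adjusted p = 0.121) and -0.43 ± 0.11 for Mmp23 (adjusted p = 0.106), and neither passed. Mmp15, which encodes MT2-MMP, was blank on the untreated parous array and read 8925 units in the virgin, 6249 in the parous MNU and 7598 in the virgin MNU gland, a difference of -0.28 after MNU.

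The gelatinase genes, whose enzymes cut denatured and type IV collagen, showed no common direction. Mmp2 differed by -0.11 and 0.16, and Mmp9 by -0.24 and 0.11 on the log2 scale. Their 95% intervals in limma ran from -0.23 to 0.28 for Mmp2 and from -0.32 to 0.20 for Mmp9, and a mean difference within those bounds cannot be told from 0 here. Mmp3, Mmp1, Mmp10 and Mmp8 follow one another on chromosome 8 in the annotation, and only Mmp3 of these passed the filter.

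All 4 Adamts genes were measured. Adamts1, whose enzyme cuts the proteoglycans versican and aggrecan, read 1324 units in the parous and 1689 in the virgin gland, and 1439 and 1930.0 units after MNU. The parous arrays were again below the virgin ones, by -0.35 and -0.42, with a mean of -0.39 ± 0.11 (SE, limma adjusted p = 0.157). Adamts9, another versican protease, differed by -0.14 and -0.28. Adamts2, which removes the N-terminal propeptide of fibrillar procollagens, differed by 0.00 and -0.14. Of the inhibitors, Timp2 was blank on the untreated parous array, read 10818 units in the untreated virgin gland and read 7825 units in the parous against 10323 in the virgin gland after MNU, a difference of -0.40. Timp3, which encodes an inhibitor bound to the matrix, read 316 units in the parous, 341 in the virgin and 312 in the parous MNU gland, differed by -0.11 without MNU and was blank on the virgin MNU array.

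**Figure D2:**
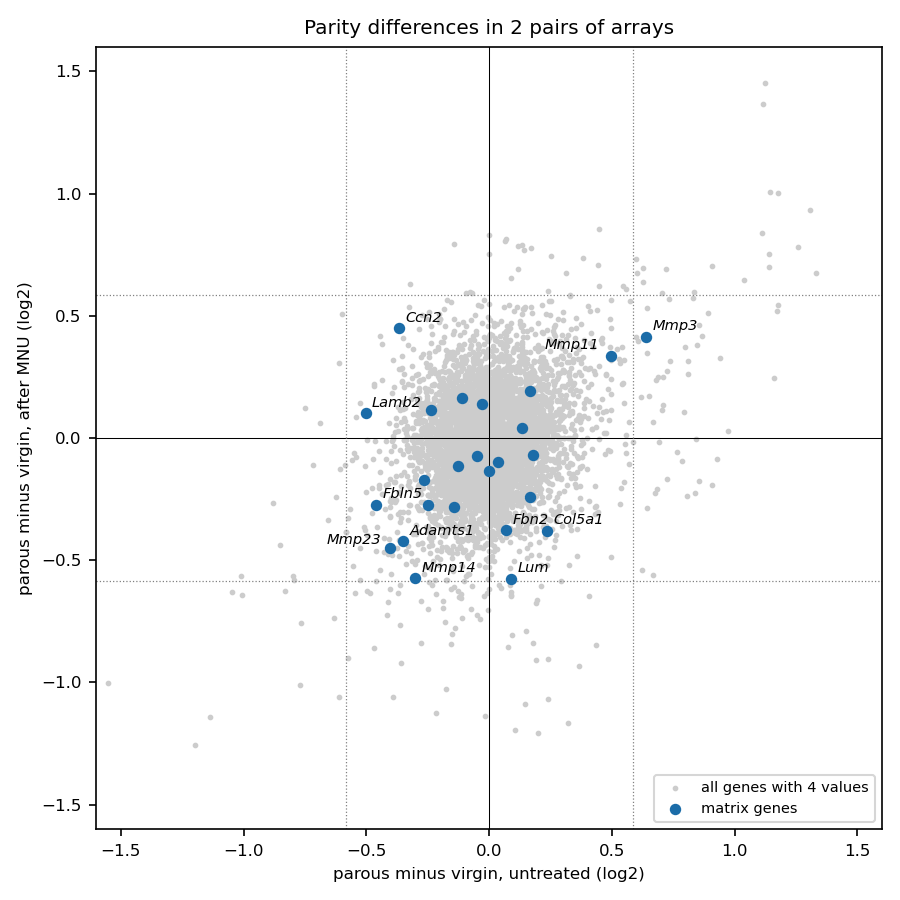
Log2 difference of parous minus virgin without MNU (horizontal axis) against the same difference after MNU (vertical axis) for 5580 genes with 4 values (grey) and 25 matrix genes (blue), with dotted lines at 1.5-fold. Each axis is 1 pair of arrays and the pairs share none; 5 grey genes lie outside the axes. Mmp3 and Mmp11 are above 0 in both pairs, while Mmp14, Mmp23, Adamts1 and Fbln5 are below 0 in both.

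Among structural genes, Fbln5 encodes fibulin-5, a protein needed to assemble elastic fibres. It read 1010 units in the parous and 1390 in the virgin gland, and 1200 and 1449 units after MNU, differences of -0.46 and -0.27. Its mean of -0.37 ± 0.11 did not pass in limma (adjusted p = 0.209). Fbn2, which encodes a fibrillin of microfibrils, read 232 units in the parous, 222 in the virgin, 196 in the parous MNU and 255 in the virgin MNU gland, differences of 0.07 and -0.38. Fbln1 differed by -0.05 and -0.07.

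The basement membrane genes did not share a direction. Lamb2, a laminin chain, read 4767 units in the parous and 6760.0 in the virgin gland without MNU, a difference of -0.50, the most negative among matrix genes in that pair. After MNU it read 6169 and 5744 units, a difference of 0.10 that was -0.06 with median centring and -0.36 as deposited. Lamc1, the laminin chain shared by most laminins, differed by -0.27 and -0.17, and its other kept feature by -0.19 and -0.22. Lamb3, a chain of the laminin that anchors epithelium, differed by -0.03 and 0.14. Col15a1, a collagen of the basement membrane zone, differed by 0.16 and -0.24 in its brighter feature and by 0.33 and 0.15 in the other, so that its features disagreed in sign after MNU.

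The kept fibrillar collagen features shared no direction without MNU, with differences from -0.25 to 0.27. Those of Col3a1 (223 to 269 units over the 4 arrays), Col5a2 (250 to 295) and Col2a1 (240 to 294) read close to the intensity filter of 215.1 units. A small difference in such a feature does not show that its gene was stable. Col1a2 differed by 0.10, Col5a2 by 0.03, Col3a1 by -0.13 and Col5a1, a collagen that starts type I fibrils, by 0.24. Col5a1 read 457 units in the parous and 388 in the virgin gland, and 340.1 and 442 units after MNU, where the difference was -0.38. Its other kept feature differed by 0.11 and -0.39. All 4 measured fibrillar collagens lay below 0 after MNU, with a median of -0.20, where 2987 of 5679 genes were below 0. The other kept feature of Col5a2 differed by 0.27 without MNU and by 0.00 after it. Col2a1, best known from cartilage, differed by -0.25 and -0.27, with a limma mean of -0.26 (adjusted p = 0.424). Col3a1 and Col5a2 are neighbours in the annotation, as are Dcn and Lum.

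Lum encodes lumican, a proteoglycan that spaces collagen fibrils. It read 260 units in the parous, 244 in the virgin, 239 in the parous MNU and 356 in the virgin MNU gland. The virgin MNU array alone stood higher, which gave a parity difference of 0.09 without and -0.58 with MNU. Bgn, which encodes the related proteoglycan biglycan, read 7593 units in the parous, 8302 in the virgin and 8297 in the parous MNU gland, and was blank in the virgin MNU gland. Its difference without MNU was -0.13 and turned to 0.16 with median centring. Col17a1, a transmembrane collagen that fixes basal epithelial cells to the basement membrane, read 2832 units in the parous, 2504 in the virgin, 2175 in the parous MNU and 2285 in the virgin MNU gland, differences of 0.18 and -0.07.

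Counted over all roles, without MNU 12 of 28 measured genes were above 0 and 16 below, with a median of -0.08 against -0.01 over 5987 genes, of which 3129 were below 0. As deposited both medians were -0.08. With MNU 9 of 27 were above and 18 below, with a median of -0.14 against -0.01 over 5679 genes, of which 2987 were below 0. Without MNU 1 matrix gene, Mmp3, was at least 1.5-fold higher, where 1.22% of all genes were, and 0 were 1.5-fold lower, where 0.451% were. With MNU 0 of 27 were 1.5-fold higher or lower, where 0.88% and 1.41% of all genes were. Mmp14 at 1.49-fold and Lum at 1.49-fold lay just under that threshold. Of the 25 genes with 4 values, 4 were above 0 in both pairs (16%) and 9 below 0 in both (36%), against 24.6% and 30.1% of 5580 genes.

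In limma 1 of 25 matrix genes rose with parity and 0 fell, where 0.753% of all genes rose and 0.466% fell. At an unadjusted p under 0.05, 2 were higher and 5 lower, namely Mmp3 and Mmp11, and Mmp14, Mmp23, Adamts1, Fbln5 and Col2a1. Over all genes the shares at that unadjusted threshold were 4.93% and 4.87%. The lowest adjusted p among the 24 matrix genes that did not pass was 0.106. Standard errors ran from 0.11 to 0.16 on the log2 scale. These p-values rest on how far the 4 arrays depart from additive effects and may reflect technical spread only.

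The comparison of MNU with untreated glands asked how the matrix genes stood 3 weeks after the carcinogen. In virgin glands Ccn2 differed most. Ccn2 encodes connective tissue growth factor, a matrix-associated protein that promotes matrix production by fibroblasts. It read 723 units in the untreated virgin gland and 306 after MNU, and 561 and 417 units in the parous gland. Both MNU arrays were below both untreated arrays. The difference was -1.24 in virgin glands (2.37-fold lower) and -0.43 in parous glands (1.34-fold lower). Of the 5814 genes measured in the virgin pair, 1 had a more negative difference, and in the parous pair 125 of 5785 did.

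Over both pairs Ccn2 had a limma mean of -0.83 ± 0.16 (SE, 2 arrays per MNU state, 95% interval -1.19 to -0.48), with adjusted p = 0.0548, just above the threshold of 0.05. It passed in 5 of 12 ways of processing, with adjusted p from 2.21e-05 to 0.772, and its mean was negative in every one. Among them was a change in how tied intensities enter the normalization, tried after the values had been seen, with adjusted p = 0.0486. The order of the 4 arrays was virgin, parous, parous with MNU and virgin with MNU from high to low, so the parity difference of Ccn2 was -0.37 without and 0.45 with MNU.

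Lum and Col15a1 were the matrix genes most above 0 in virgin glands after MNU. Lum differed by 0.55 and Col15a1 by 0.43, and in parous glands they differed by -0.12 and 0.03. The other feature of Col15a1 differed by 0.43 in virgin and by 0.26 in parous glands. Col5a1 differed by 0.19 in virgin and -0.43 in parous glands, and Lamb2 by -0.24 and 0.37. Over the ways of processing, Lamb2 changed sign in both pairs, from -0.29 to 0.13 and from -0.18 to 0.65. Mmp14 read alike on both virgin arrays, a difference of 0.00, and differed by -0.27 in the parous pair, though its other feature differed by -0.27 and -0.44.

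Other matrix genes lay below 0 in both pairs. Mmp3 differed by -0.15 in virgin and -0.37 in parous glands, Fbln1, which encodes fibulin-1, by -0.27 and -0.29, and Col17a1 by -0.13 and -0.38. Their limma means were -0.26 for Mmp3 (adjusted p = 0.372), -0.28 for Fbln1 (adjusted p = 0.304) and -0.26 for Col17a1 (adjusted p = 0.379). None of the 3 passed. Fbln1 read 186 units in the parous MNU and 195 in the virgin MNU gland, close to the floor. Its other feature did not pass the filter and went the opposite way in parous glands. That feature read 184 units in the parous and 196 in the parous MNU gland, and 193 and 176 units in the virgin pair. Adamts1, Adamts9, Col3a1, Col15a1 and Fbln5 were above 0 in both pairs, Fbln5 by 0.06 and 0.25 and Col3a1 by 0.14 and 0.15. As deposited all 5 were below 0 in the parous pair, where all genes shifted by -0.40.

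**Figure D3:**
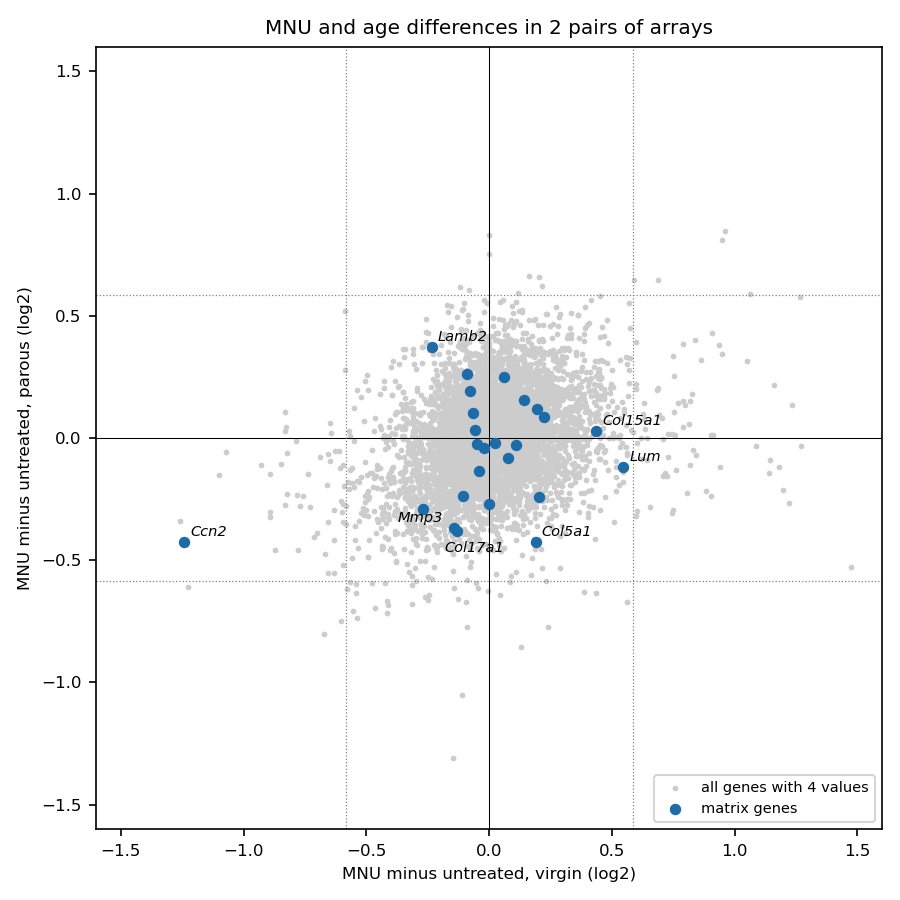
Log2 difference of MNU minus untreated in virgin glands (horizontal axis) against the same difference in parous glands (vertical axis) for 5580 genes with 4 values (grey) and 25 matrix genes (blue), with dotted lines at 1.5-fold. Each axis is 1 pair of arrays, and 4 grey genes lie outside the axes. Ccn2 lies far to the left at -1.24 and at -0.43 on the vertical axis, while the other matrix genes lie within the cloud of all genes.

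Counted as a group, 11 of 27 matrix genes were above 0 and 15 below in virgin glands, with a median of -0.04 against 0.00 over all genes. In parous glands 11 were above and 16 below, with a median of -0.02 against 0.00. In virgin glands 0 matrix genes were at least 1.5-fold higher, where 1.36% of all genes were, and 1, Ccn2, was lower, where 0.929% were. In parous glands 0 were 1.5-fold higher and 0 lower, where 0.277% and 0.709% of all genes were. Of the 25 genes with 4 values 5 were above 0 in both pairs (20%) and 8 below 0 in both (32%), against 29.6% and 28.7% of all genes.

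With limma 0 of 25 matrix genes rose and 0 fell with MNU and age, where 0.161% of all genes rose and 0.0896% fell. At an unadjusted p under 0.05, 0 were higher and 4 lower, namely Ccn2, Fbln1, Mmp3 and Col17a1. Of these, Fbln1 read close to the floor after MNU, and its features disagreed in direction in parous glands. Over all genes those shares were 5.88% and 6.81%.

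**Figure D4:**
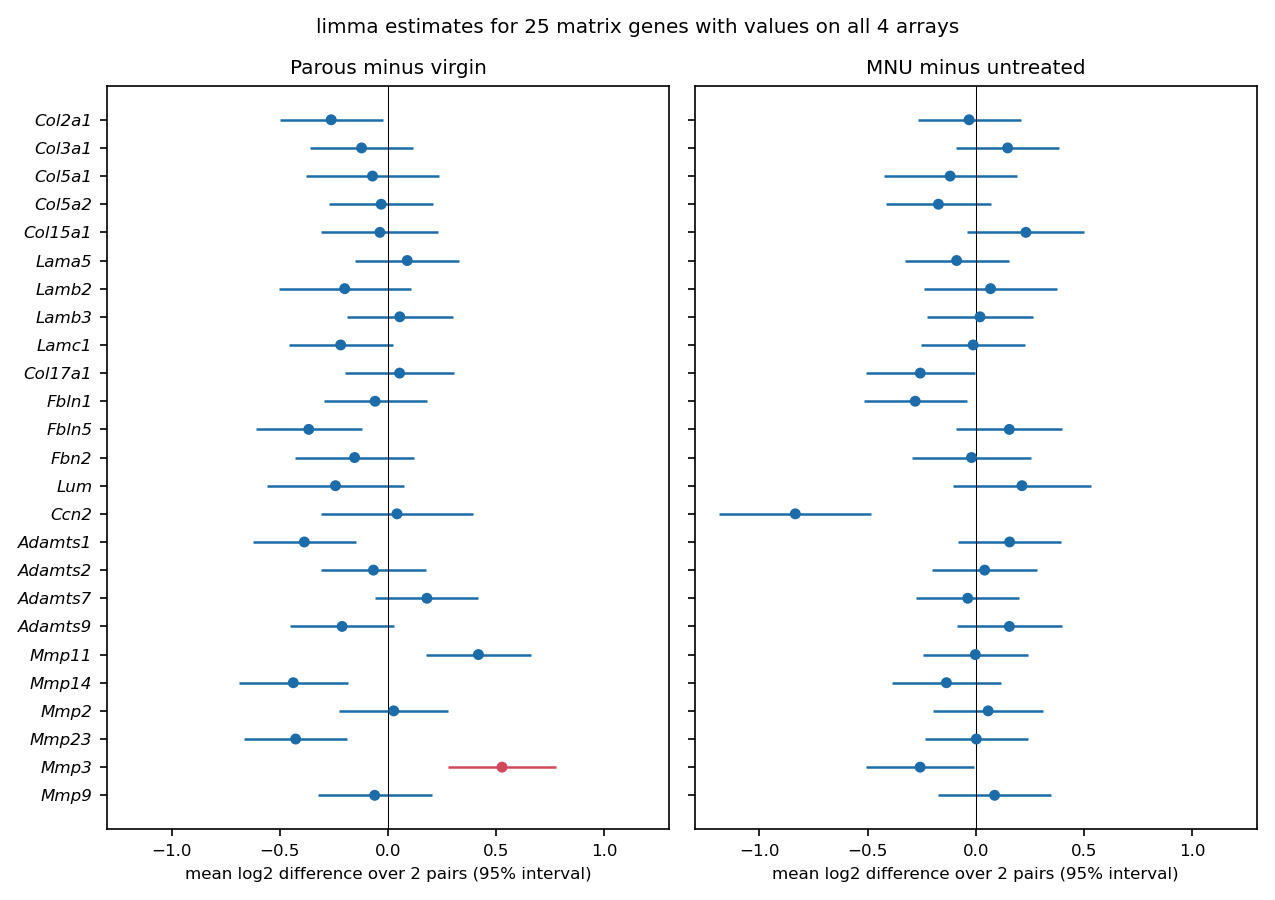
Mean log2 difference over both pairs of arrays with its 95% interval from limma for the 25 matrix genes with 4 values, for parity (left) and for MNU and age (right). The gene that passed at an adjusted p under 0.05, Mmp3 for parity at 0.53, is red; Ccn2 stands farthest from 0 on the right at -0.83.

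Genes that process collagen, bind the matrix or act beside metalloproteinases were read from accompanying lists. Of 22 collagen processing genes 11 passed the filter, and 8 of 9 measured were below 0 in the parous against the virgin gland after MNU, with a median of -0.18. Loxl1, a cross-linking enzyme of elastic fibres, read 242 against 372 units there (-0.62), P4ha2, a collagen prolyl hydroxylase, differed by -0.38 and Fkbp10, a collagen chaperone, by -0.36. Without MNU 7 of 10 genes of that list were below 0, with a median of -0.04. For MNU and age, 6 of 9 were above 0 in virgin glands (median 0.14) and 7 of 10 below 0 in parous glands (median -0.11). Over all genes 3129 of 5987, 2949 of 5814 and 2900 of 5785 lay on those sides. In limma 0 of 8 members passed for parity and 0 for MNU and age, with 1 and 0 at an unadjusted p under 0.05. Over all genes 9.8% for parity and 12.7% for MNU and age lay under that unadjusted threshold. These shares also stand beside the counts for the lists that follow.

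Among matrix receptors 16 of 28 passed the filter. Itga4, the integrin alpha4 chain found mainly on leukocytes, rose with parity: it read 733 units in the parous and 324 in the virgin gland, and 698 and 478 after MNU, a mean of 0.86 ± 0.14 (SE, limma adjusted p = 0.0104). It was the only one of 14 fitted receptors that passed for parity, and 0 passed for MNU and age, with 3 at an unadjusted p under 0.05 for each. Sdc1, which encodes syndecan-1, a heparan sulphate proteoglycan of epithelial cells, differed by -0.66 with MNU in parous and by -0.25 in virgin glands. Of 12 plasminogen and cathepsin genes 5 passed the filter. Ctsk, which encodes cathepsin K, a protease that cuts collagen, read 820.2 units in the parous and 1331 in the virgin gland after MNU, a difference of -0.70, and Serpine2, an inhibitor of plasminogen activators, differed by -0.41. None of 4 fitted members passed in limma for either effect, with 1 at an unadjusted p under 0.05 for each.

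Lum, Loxl1 and Ctsk were each highest on the virgin MNU array. In whole glands fewer cells of a type and less RNA per cell cannot be told apart. Sums over marker lists differed between arrays, though bright members weigh most in a sum. The summed intensity of 5 adipocyte markers was 13100.1 units on the virgin MNU array and between 6726 and 8877 on the other 3. Gpd1, Cidec and Lipe were highest there (8408, 2342 and 225 units), while Pparg and Lep were higher on the parous MNU array. Adipoq, Plin1 and Lpl did not pass the filter or lacked values. Fabp4, at 8133 units in the parous and 11765 in the virgin gland, had no value on the MNU arrays and is not in the sum. The sum of 6 luminal epithelial markers was 10540.0 units on the virgin MNU array and between 12859 and 14081 elsewhere. Krt19, Epcam and Cldn3 were lowest on that array, Krt7 was highest, and Cdh1 and Muc1 were neither. Krt8 and Krt18 were among those not measured. For 6 fibroblast markers the sum lay between 14368 units in the virgin and 16358 in the parous gland, and Vim, which encodes vimentin, differed by 0.65 between these and by 0.17 after MNU. Vim read 9281 units in the parous and 5910.0 in the virgin gland, while 5 of 7 measured fibroblast markers were below 0 without MNU, with a median of -0.11, among them Dpt at -0.36 and S100a4 at -0.16. Of 7 macrophage markers 4 were measured. Cd14 stood at 0.69 and 0.25 in the parity pairs, Mrc1 at -0.38 and -0.18 and Clec10a at -0.47 and -0.09, and Cd68, Csf1r and Adgre1 did not pass the filter or lacked values. The summed macrophage level was 6794 units in the parous and 7031 in the virgin gland without MNU and 6352 and 6232 with it. For the 2 endothelial markers with 4 values the sums lay between 2944 and 3520 units. The 4 measured myoepithelial and smooth muscle markers summed to 11686, 10576, 10070 and 8983 units in the order parous, virgin, parous MNU and virgin MNU. Tagln weighed most in these sums and was lowest on the virgin MNU array (5321 units). Krt5 and Krt14 were highest there (634 and 1176 units), and Cnn1 was neither. Acta2, Myh11 and Mylk did not pass the filter or lacked values. For 3 skeletal muscle markers the sums were 1147, 1380, 1314 and 1543 units in that order. Milk genes were present, with Csn1s2a at 11348 units in the parous and 780.1 in the virgin gland. The 6 luminal epithelial markers had a median parity difference of 0.10 without MNU, with 3 above and 3 below 0. Milk gene levels are therefore not read here as the amount of epithelium. The part of these cell types in the results for Mmp3, Ccn2 and Lum was not tested.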

How the data were processed

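The values the authors deposited are intensities on a linear scale, 1 column for each of 4 arrays, with blanks; the array design, scanner and image processing are not described in the sources available here. Of 20500 features 12750 carried 1 gene symbol, 5 carried several and 7745 none, and 12720 took their present symbol from GRCr8 through the gene ID. Because the highest array median was 1.33 times the lowest, quantile normalization was applied. The curve came from features with 4 values and was interpolated to the others. Lower intensities were set to 176.9 units, the 40th percentile over all arrays, before taking log2. Features stayed in if 1 array exceeded the pooled 50th percentile (215.1 units), which left 11098. The brightest remaining feature stood for its gene, and blanks were never filled in.

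Single pairs gave log2 differences and counts at 1.5-fold with no p-value. Both pairs entered 1 fit with parity and MNU as additive terms in limma 3.58.1 (R 4.3.3, lmFit, eBayes without trend, Benjamini-Hochberg over 5580 genes), with 1 residual and 10.9 prior degrees of freedom. It was also run on simulated data with independent noise, where effects were set only in genes well above the floor. That run does not cover dim genes such as Mmp3 and Mmp11. Figures used matplotlib 3.10.9 in Python 3.11.15. The members, lists, thresholds and tests were chosen with earlier results of these data known. Values on all arrays are given for genes past 1.5-fold or limma's threshold and for bright members of each role group; further genes named with 4 values, and the promoters and motifs shown, were chosen after values had been seen. Alternatives covered scaling, background, floor, filter, features per gene, fold threshold, ties and limma's prior. No column of another sample was present.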

Additional observations from a re-analysis of the deposited data

Results flagged for a closer look

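Ccn2 was singled out because its parity difference had opposite directions in the 2 pairs of arrays, each beyond a minimum size set for this check: -0.37 on the log2 scale without MNU and 0.45 with MNU. Both values come from single arrays and the difference between the pairs was not tested. As deposited, without scaling, the value with MNU was 0.09, where all genes shifted by -0.36. No other matrix gene had opposite parity differences of that size.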

How the results depend on the processing

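Most counts here are 0 or 1, so 1 gene moves them. As deposited, without scaling, all genes shifted by -0.36 for parity with MNU and by -0.40 for MNU in parous glands; there the matrix medians were -0.55 and -0.42, and 12 and 5 matrix genes were 1.5-fold lower. In that setting 0 were 1.5-fold higher for parity without MNU, as with a 2-fold threshold. With median centring 2 were 1.5-fold lower for parity with MNU and 1 for MNU in parous glands. With quantile normalization over all values these were 1 lower for parity with MNU and 1 higher for MNU in parous glands. With background subtracted 2 were 1.5-fold higher for parity without MNU, 1 higher and 2 lower for parity with MNU, and 1 higher for MNU in virgin glands.

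In limma, 0 matrix genes rose with parity as deposited, with the lower floor, without a filter, with the mean of features, with a trend or with a robust prior, and 2 (Mmp3 and Mmp11) with background subtracted. With the strict filter 3 fell, Adamts1, Mmp14 and Mmp23. For MNU and age 1, Ccn2, fell as deposited, with median centring, with quantile normalization over all values, with the strict filter or with tied values averaged, the last added after seeing the data. The strict filter tested 4926 genes in place of 5580 and no filter tested more; the cause of the other changes was not tested. Over all settings Mmp3 lay between 0.57 and 0.84 for parity without MNU, and Ccn2 between -1.53 and -1.19 for MNU in virgin glands. Of 109 single-gene differences 34 changed sign in some setting, 23 of them as deposited, and none of these was past 1.5-fold with the main processing. Lamb2 for MNU in parous glands, which was among them, ran from -0.18 as deposited to 0.65, past 1.5-fold. Blank and dim features limit the rest. Leaving out an array leaves no pair or no residual degree of freedom, so it was not run. No paired analysis was possible because each group has 1 array and the labels carry no replicate numbers.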
